A study of Mus musculus with 32 samples.

Results

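The m6A readers and erasers are the proteins that bind N6-methyladenosine in RNA or remove it. The 10 genes described here are the YTH-domain readers Ythdf1, Ythdf2, Ythdf3, Ythdc1 and Ythdc2, the Igf2bp readers Igf2bp1, Igf2bp2 and Igf2bp3, and the erasers Fto and Alkbh5. They were taken by gene symbol from a table of 55492 genes measured in 32 mRNA libraries, and all 10 passed the filter of at least 1 FPKM (fragment counts scaled for transcript length and library depth) in at least 2 libraries, which left 16276 genes for testing. They were chosen by name, not by a threshold on these values, but with earlier results of these data known.

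The libraries come from Rx:GFP mouse embryonic stem cells, which carry a GFP reporter for the eye-field gene Rax, and from their differentiation into retinal organoids. At days 0, 2, 4 and 6 there were 2 libraries each of unmodified cells with the Mettl3 gene intact (WT), of Mettl3 knockout cells (KO), and of the KO cells overexpressing wild-type METTL3 fused to GRBD (the fusion line), the last without Dex and with 10 µM Dex. By the series' own account METTL3-GRBD stays in the cytosol until Dex is added and then enters the nucleus. All fusion libraries also carry the knockout. Differentiation medium contained 0.1 µM AGN in every line. The day 0 libraries are stem cells, and 2 of them are labelled as Dex treated although the protocol lists Dex for days 2, 4 and 6. The labels do not say how many clones each line represents, nor that the duplicates were separate cultures. The p-values below therefore measure only the spread between duplicate libraries, which may be technical.

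N6-methyladenosine is written into nascent RNA by a complex built around METTL3 and METTL14. In the cytoplasm YTHDF proteins bind methylated mRNAs and recruit deadenylases that shorten their lives. In the nucleus YTHDC1 acts on splicing, export and chromatin-bound RNA, and YTHDC2 is a helicase known mainly for its role in meiosis. IGF2BP proteins stabilise and transport bound mRNAs and are abundant in embryonic tissue, and FTO and ALKBH5 are iron-dependent dioxygenases that remove the methyl group.

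The start sites of the genes on which the results turn are shown first, because the data describe groups of members that moved together. Of the 10 members, 7 matched the RefSeq promoter table (build GRCm38.p6). Of these promoters, 6 are printed below in the direction of transcription, cut where the sequence reaches an annotated gene, so that every base lies upstream of the start. Capitals mark matches, on either strand, to the GC box GGGCGG or the E-box CACGTG. The printed stretches are chr2:180920950-180921186 (minus strand) for Ythdf1, chr4:132212304-132212506 (minus) for Ythdf2, chr5:86804016-86804220 (plus) for Ythdc1, chr8:91313275-91313524 (plus) for Fto, chr16:22163300-22163549 (minus) for Igf2bp2 and chr6:49214958-49215204 (minus) for Igf2bp3.
Ythdf1: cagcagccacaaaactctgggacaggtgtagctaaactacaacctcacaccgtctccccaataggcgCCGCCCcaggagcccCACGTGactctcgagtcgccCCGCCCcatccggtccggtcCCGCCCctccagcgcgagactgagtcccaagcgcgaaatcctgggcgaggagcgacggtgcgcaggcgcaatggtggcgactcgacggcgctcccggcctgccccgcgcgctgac
Ythdf2: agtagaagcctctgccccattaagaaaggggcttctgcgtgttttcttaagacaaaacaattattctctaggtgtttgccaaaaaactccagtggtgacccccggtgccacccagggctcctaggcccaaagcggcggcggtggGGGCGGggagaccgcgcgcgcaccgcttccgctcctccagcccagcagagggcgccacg
Ythdc1: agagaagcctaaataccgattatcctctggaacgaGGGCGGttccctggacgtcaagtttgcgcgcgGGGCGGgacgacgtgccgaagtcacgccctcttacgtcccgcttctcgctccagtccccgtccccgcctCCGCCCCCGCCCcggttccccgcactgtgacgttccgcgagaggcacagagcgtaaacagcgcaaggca
Fto: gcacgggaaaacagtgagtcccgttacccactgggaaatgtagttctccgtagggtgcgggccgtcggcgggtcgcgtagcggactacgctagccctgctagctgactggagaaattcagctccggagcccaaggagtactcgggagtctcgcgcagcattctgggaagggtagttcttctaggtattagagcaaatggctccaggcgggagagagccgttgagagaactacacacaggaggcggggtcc
Igf2bp2: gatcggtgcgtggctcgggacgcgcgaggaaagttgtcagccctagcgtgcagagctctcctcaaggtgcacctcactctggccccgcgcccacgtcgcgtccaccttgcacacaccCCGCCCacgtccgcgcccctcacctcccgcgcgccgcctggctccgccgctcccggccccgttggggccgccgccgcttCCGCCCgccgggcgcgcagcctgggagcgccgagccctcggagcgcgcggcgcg
Igf2bp3: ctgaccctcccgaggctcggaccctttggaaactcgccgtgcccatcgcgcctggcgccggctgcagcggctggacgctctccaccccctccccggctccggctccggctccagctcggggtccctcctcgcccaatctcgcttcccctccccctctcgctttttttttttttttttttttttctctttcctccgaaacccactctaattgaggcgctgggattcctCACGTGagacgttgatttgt

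The 250 bases before each RefSeq start were searched on both strands for 6 motifs. The Alkbh5 window lies wholly inside the annotated Alkbh5 gene, which begins at position 60536381 of chromosome 11, so it is not printed. GGGCGG was present in 5 of the 7 member windows, that of Alkbh5 among them, against 32.7% of all 32851 windows. In the printed stretches it occurs upstream of Ythdf1, Ythdf2, Ythdc1 and Igf2bp2. CACGTG was found for Ythdf1 and Igf2bp3, against 6.0% of all windows, and TAATTA, a core bound by many homeodomain proteins, only for Alkbh5 among the 7, against 4.8%. TATAAA was found in none of the 7, against 12.4%. AGAACA, part of the element bound by the glucocorticoid receptor, was found in none of the 7, against 16.1%, and the full palindromic glucocorticoid response element, which contains it, in 3 of the 32851 windows and no member. The member windows had 54.0% (Alkbh5) to 77.2% (Igf2bp2) G and C, against a median of 52.4% over all windows. The printed Fto stretch begins just beyond a neighbour and shares no annotated base with it. The gene Rpgrip1l, on the opposite strand, begins at position 91313262, a short distance before the Fto start at 91313525.

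Estimated depth was 28800000 to 52900000 fragments per library (median 38200000). Duplicates correlated at r of 0.9922 to 0.9955 across genes, and no library stood apart from its duplicate. Mettl3 mRNA was 36.8 and 33.2 FPKM in WT and 43.8 and 42.9 FPKM in KO at day 0, where it was called higher in KO (0.30, limma adjusted p = 0.000417). At days 2, 4 and 6 it was 32.5 to 41.2 FPKM in WT and 34.9 to 40.8 in KO, with differences of -0.03, 0.12 and 0.07 that were not called, although the day 2 value passed as lower after rescaling by the median of ratios (-0.15, adjusted p = 0.0453). The knockout therefore rests on the labels, and where the deletion lies in the transcript is not given in the sources used here. The summed level of 7 pluripotency genes was 1947 to 2197 FPKM across the day 0 libraries and 196 to 273 FPKM at day 6, and at day 4 it was 616 to 625 FPKM in WT, 447 to 455 in KO, 443 to 445 in the fusion line without Dex and 319 to 326 with Dex. The 5 neural progenitor markers (Sox1, Sox3, Pax6, Nes and Fabp7) had a higher sum in KO than in WT at days 2, 4 and 6. They summed to 47.1 to 48.4 FPKM in WT and 79.1 to 80.8 in KO at day 2. At day 4 they summed to 78.2 to 78.5 and 171 to 174, and at day 6 to 382 to 393 and 552. In the fusion line at those days they summed to 69.97 to 70.9, 137 to 139 and 591 to 594 FPKM without Dex and 70.4 to 70.6, 165 to 169 and 581 to 585 with Dex. Fabp7, a fatty acid binding protein of radial glia, was 13.6 and 13.6 FPKM in WT and 191 and 187 in KO at day 6. The other markers did not move alike at that day. Sox3 was lower in KO, at 179 and 172 FPKM in WT and 143 and 147 in KO. Pax6 was close, at 111 and 109 against 111 and 112. Sox1 was 47.2 and 45.7 against 54.9 and 54.9, and Nes 42.0 and 41.9 against 51.1 and 51.4. The summed level of the eye-field genes Rax, Six3, Six6 and Lhx2 at day 6 was 538 to 570 FPKM in WT, 5.58 to 6.27 in KO, 29.5 to 29.9 in the fusion line without Dex and 263 to 268 with Dex. Markers of extraembryonic endoderm (Gata4, Gata6, Sox17, Foxa2 and Afp) summed to 15.1 to 43.1 FPKM in WT and 0.56 to 2.79 in KO, where 4 or all 5 of them were below 1 FPKM at every day. In the fusion line they summed to 0.55 to 3.13 FPKM without Dex and 4.21 to 5.33 with Dex, below WT at every day. Fibroblast markers summed to 3.79 to 18.0 FPKM over all libraries. The part of cell composition in the differences below was not tested. In bulk samples, fewer cells of a type and less RNA per cell cannot be told apart.

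Because FPKM are scaled by transcript length, levels can be set side by side between members. Over the 32 libraries Ythdc1 was the most abundant of the 10, with a mean of 91.9 FPKM that exceeded 91.4% of tested genes, followed by Igf2bp1 (53.7), Igf2bp2 (49.4), Ythdf1 (49.4), Igf2bp3 (32.4), Ythdf2 (28.4), Fto (26.8), Ythdf3 (20.6) and Alkbh5 (16.7). Ythdc2 was low throughout, with a mean of 2.99 FPKM, above 33.8% of tested genes, and rested on an estimated 387 to 1446 fragments per library. The members varied to different extents between the 16 groups. Igf2bp2 had the widest span, a ratio of 9.18 between its highest and lowest group means, and Igf2bp3 the next, 5.1, while the other 8 spanned ratios of 1.85 (Igf2bp1) to 2.78 (Fto and Ythdc2).

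**Figure D1:**
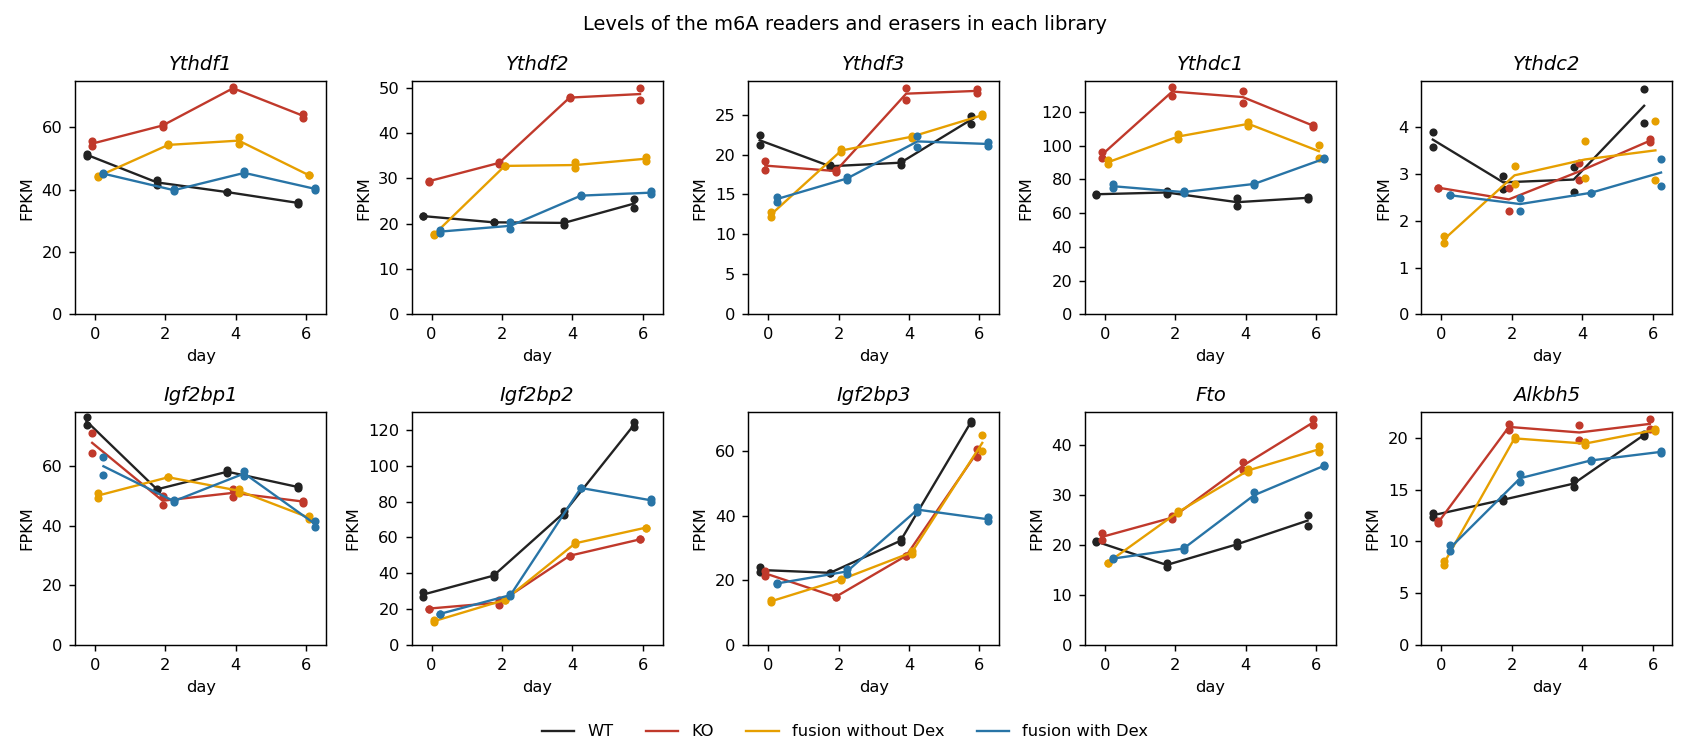
Level in FPKM (vertical axis, starting at 0) against day of differentiation (horizontal axis) for each of the 10 genes. Points are single libraries, 2 per group, lines join the group means, and the lines of cells are offset slightly along the axis. The KO libraries (red) lie highest for Ythdf1, Ythdf2 and Ythdc1 at every day, and the WT libraries (black) reach the highest Igf2bp2 level at day 6, 122 and 124 FPKM.

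The first comparison, KO against WT, asks how readers and erasers stood when the methyltransferase gene was disrupted. Ythdf1, Ythdf2 and Ythdc1 were higher in KO at all 4 days, Fto was higher from day 2 on, and Igf2bp2 was lower at all 4 days. With limma on log2(FPKM + 1), an adjusted p under 0.05 was reached by 7 of 10 members at day 0 (3 higher, 4 lower), 8 at day 2 (5 higher, 3 lower), 9 at day 4 (6 higher, 3 lower) and 8 at day 6 (5 higher, 3 lower). Calls were common among all tested genes too: 48.2%, 58.9%, 60.5% and 65.1% passed at the same days. Higher calls made up 18.4%, 37.5%, 36.5% and 30.9% of all genes, and lower calls 29.8%, 21.3%, 24.0% and 34.2%. The median member change by class was 0.09, 0.51, 0.87 and 0.69 for the 5 YTH genes and -0.15, -0.55, -0.22 and -0.21 for the 3 Igf2bp genes at days 0, 2, 4 and 6, against -0.04, 0.09, 0.06 and -0.03 for all tested genes. Fitted on the compared libraries alone, the day 0 comparison called 3 members, Ythdf2, Ythdc1 and Igf2bp2. Rescaling libraries by the median of ratios moved the share of higher calls among all genes from 63.8% to 50.6% at day 2 and from 60.3% to 49.7% at day 4, while every called member kept its direction.

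Ythdf2, the reader best known for bringing methylated mRNAs to the CCR4-NOT deadenylase, showed the largest rise in KO. It was 21.7 and 21.7 FPKM in WT and 29.5 and 29.3 in KO at day 0, and 20.6 and 19.8 in WT against 48.1 and 47.7 in KO at day 4. At day 6 the WT libraries had 23.4 and 25.6 FPKM and the KO libraries 49.9 and 47.4. The groups did not overlap at any of these days, and the gap was widest at day 4. The differences in log2(FPKM + 1) were 0.42, 0.69, 1.21 and 0.96 at days 0, 2, 4 and 6 (SE 0.039, limma adjusted p from 5.05e-15 to 5.05e-08). In WT the gene stayed within a narrow band over time, whereas in KO its mean rose by 0.71 (SE 0.039) on the log2 scale from day 0 to day 6.

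Ythdf1, a cytoplasmic reader linked to translation and mRNA turnover, went opposite ways with time in the 2 lines. In WT it was 51.6 and 50.9 FPKM at day 0 and 35.3 and 36.2 at day 6. In KO it was 54.0 and 55.6 FPKM at day 0, 72.2 and 73.0 at day 4 and 63.0 and 64.4 at day 6. All KO libraries exceeded all WT libraries of the same day, by a small margin at day 0. The differences were 0.10, 0.51, 0.87 and 0.82 on the log2 scale (SE 0.024, adjusted p from 3.19e-16 to 0.00261), and the day 0 difference was not called when the 4 compared libraries were fitted alone (adjusted p = 0.119). From day 0 to day 6 Ythdf1 fell by 0.51 in WT (adjusted p = 1.4e-13) and rose by 0.21 in KO (adjusted p = 8.23e-08).

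Ythdf3, the remaining YTHDF protein, did not follow the other two at every day. It was 22.4 and 21.2 FPKM in WT and 18.1 and 19.1 in KO at day 0, and 19.2 and 18.7 in WT against 28.4 and 26.9 in KO at day 4. The KO libraries thus lay below WT at day 0 and above it at day 4. The differences were -0.22, -0.05, 0.52 and 0.19 (SE 0.038), with adjusted p of 0.000109, 0.335, 6.35e-10 and 0.000201. Fitted on the compared libraries alone, the day 0 value had an adjusted p of 0.0767. After rescaling, the day 2 value of Ythdf3 was -0.16 and passed as lower in KO (adjusted p = 0.00163).

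Ythdc1, the nuclear YTH reader, was nearly flat in WT and high in KO. The WT libraries ranged from 64.1 to 73.0 FPKM over the 4 days. The KO libraries had 92.9 and 96.3 FPKM at day 0, 135 and 129 at day 2, 133 and 125 at day 4, and 113 and 111 at day 6. Every KO library was therefore above every WT library. The differences were 0.41, 0.86, 0.95 and 0.69 on the log2 scale (SE 0.038, adjusted p from 8.04e-14 to 4.8e-08). Ythdc2 was called only at day 0, where it was 3.9 and 3.58 FPKM in WT and 2.71 in each KO library. That difference was -0.35 (SE 0.119, adjusted p = 0.0196), and the call was lost without WT day 0 replicate 1 (adjusted p = 0.115), KO day 0 replicate 1 (0.0688) or KO day 0 replicate 2 (0.0684).

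Among the Igf2bp readers, Igf2bp2 carried most of the difference. It was 29.8 and 26.6 FPKM in WT and 20.4 and 20.3 in KO at day 0, and 72.6 and 75.0 in WT against 49.8 and 49.9 in KO at day 4. At day 6 it was 124 and 122 FPKM in WT and 58.9 and 59.0 in KO. The level rose with time in both lines and was lower in KO in every library of each day. The differences were -0.45, -0.69, -0.56 and -1.05 (SE 0.044, adjusted p from 6.94e-14 to 8.84e-08). Igf2bp3 was 22.4 and 22.3 FPKM in WT and 14.95 and 14.87 in KO at day 2, and 69.2 and 68.6 in WT against 60.4 and 58.2 in KO at day 6. Its differences were -0.07, -0.55, -0.22 and -0.21 (SE 0.042), with adjusted p of 0.224, 1.4e-09, 0.000181 and 0.00019. Igf2bp3 shares 1529 exonic bases with Malsu1 on the opposite strand, which averaged 38.7 FPKM, and whether the counting used strand is not given in the sources used here, so its level is uncertain to that extent.

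Igf2bp1 differed little between KO and WT. Its differences were -0.15, -0.11, -0.19 and -0.14 at days 0, 2, 4 and 6 (SE 0.045), with adjusted p of 0.011, 0.0445, 0.00138 and 0.0113. These calls were weak. The day 0 call was lost without WT replicate 2 (-0.12, adjusted p = 0.0829) or KO replicate 2 (-0.08, 0.223). The day 2 call was lost without WT replicate 1 (0.134), WT replicate 2 (0.105) or KO replicate 2 (-0.07, 0.333), and the day 6 call without WT replicate 2 (0.0523) or KO replicate 1 (0.0618), or after rescaling (-0.10, 0.0524). The day 4 call held with each library left out.

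Of the erasers, Fto was close between the lines at day 0, at 20.7 and 20.7 FPKM in WT and 20.9 and 22.3 in KO (difference 0.06, adjusted p = 0.23). It then diverged, to 16.4 and 15.6 FPKM in WT against 25.8 and 25.2 in KO at day 2, and to 25.9 and 23.8 against 45.1 and 43.9 at day 6. From day 2 on the KO libraries lay well above the WT libraries. The differences were 0.64, 0.80 and 0.82 at days 2, 4 and 6 (SE 0.039, adjusted p of 5.82e-11, 1.53e-12 and 5.95e-13). Alkbh5 was higher in KO at days 2 and 4, at 14.2 and 13.9 FPKM in WT against 21.3 and 20.7 in KO at day 2. By day 6 the lines were close, at 20.4 and 20.2 FPKM in WT and 21.8 and 20.9 in KO, without overlap. Its differences were -0.07, 0.55, 0.38 and 0.07 (SE 0.037), with adjusted p of 0.12, 2.04e-10, 3.9e-08 and 0.109. After rescaling, the day 6 value of Alkbh5 passed as higher in KO (0.10, adjusted p = 0.0175).

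Fto lies on chromosome 8 (91313525 to 91668439, plus strand, mm10), and the genes of that chromosome as a whole stood higher in KO than those elsewhere. The median difference of the 858 tested chromosome 8 genes exceeded that of all other tested genes by 0.05, 0.16, 0.28 and 0.40 on the log2 scale at days 0, 2, 4 and 6. Fto stood 0.05, 0.40, 0.46 and 0.47 above the chromosome 8 median, at the 57.8th, 80.3rd, 82.5th and 79.5th percentile of those genes. In Dex against no Dex the chromosome 8 median differed from the rest by -0.01, -0.02, -0.02 and 0.03. The part of this chromosome-wide difference in the Fto values was not tested. A fit with each library centred on the chromosome 8 median, added after seeing the data, left direction and call of Fto as they were in 21 of its 22 comparisons. The exception was the fusion line without Dex against KO at day 4 (-0.04, turning to 0.009, neither called). Direction and call do not give the size of the chromosome-wide part of the Fto values.

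**Figure D2:**
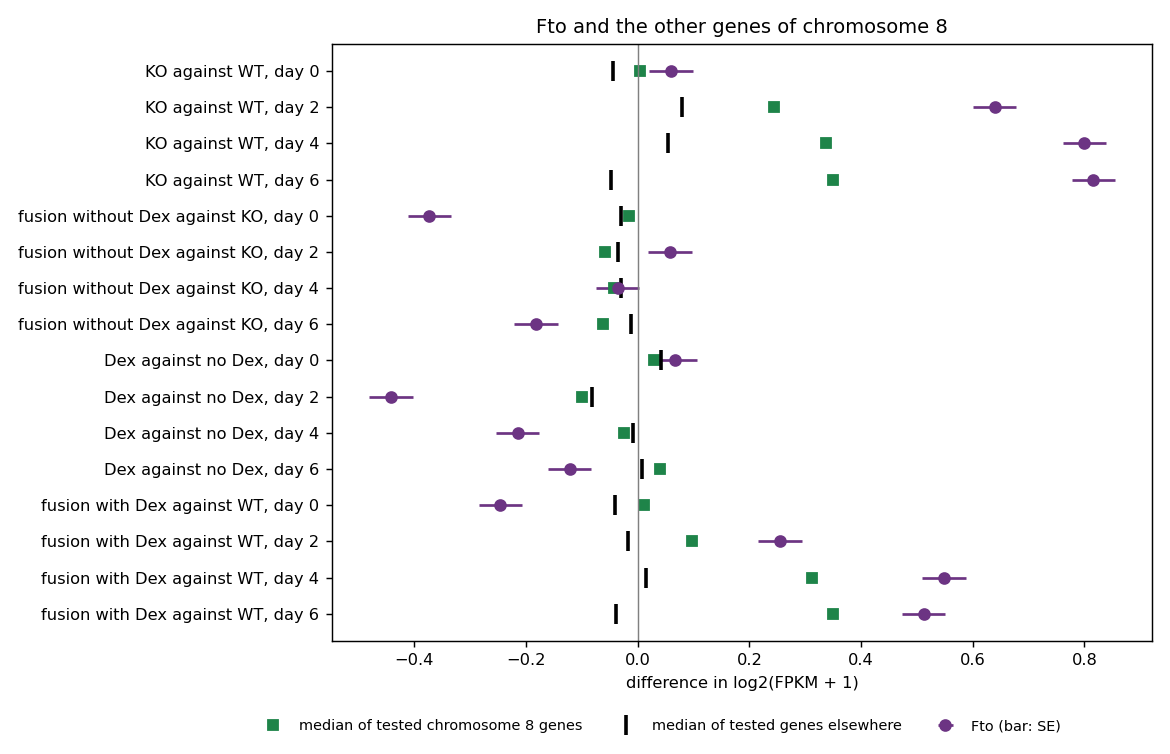
Difference in log2(FPKM + 1) (horizontal axis) for Fto, with its SE, in 16 comparisons (vertical axis), beside the median of the 858 tested chromosome 8 genes (squares) and of tested genes elsewhere (bars). In KO against WT the chromosome 8 median moves away from the rest with time, from 0.05 above it at day 0 to 0.40 at day 6, and Fto lies beyond both from day 2; in Dex against no Dex the medians stay within 0.03 of each other.

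The neighbours of Fto did not move alike. Irx3 and Irx5, homeobox genes downstream of Fto, rose in KO far beyond Fto: Irx3 was 4.26 and 4.38 FPKM in WT and 95.3 and 98.3 in KO at day 6, and Irx5 0.87 and 1.25 against 68.8 and 68.9. Aktip, on the other side, was 40.4 and 37.8 FPKM in WT and 53.8 and 54.8 in KO at day 6. Rpgrip1l, the divergent neighbour at the Fto promoter shown above, was low, at 2.08 and 2.23 FPKM in WT and 3.05 and 1.87 in KO, with overlapping groups. Of 6 tested neighbours, 4 were higher and 1 lower in KO at day 6, against 30.9% and 34.2% of all tested genes.

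The second comparison, fusion line without Dex against KO, asks what a fusion protein described as cytosolic was accompanied by. At day 0, 9 of 10 members were lower in the fusion line and none higher, against 49.1% of all genes called and 29.8% called as lower. The day 0 changes ran from -0.30 (Ythdf1) to -0.70 (Ythdf2) among the 9, and Ythdc1 was the exception (-0.07, adjusted p = 0.137). Members called at days 2, 4 and 6 numbered 5, 5 and 7, against 37.0%, 26.7% and 49.0% of all genes. Ythdf2 was close to KO at day 2, at 32.8 FPKM in each fusion library and 33.6 and 33.3 in KO, and lower at day 4, at 32.2 and 33.7 against 48.1 and 47.7 (difference -0.53, SE 0.039, adjusted p = 2.09e-08). Igf2bp2 and Fto differed less from KO after day 0, by 0.09, 0.19 and 0.15 for Igf2bp2 and 0.06, -0.04 and -0.18 for Fto at days 2, 4 and 6. Rescaling moved the share of higher calls among all genes from 39.3% to 57.3% at day 0 and from 36.3% to 51.9% at day 4, and without KO day 2 replicate 1 Igf2bp2 passed at day 2 as well (0.16, adjusted p = 0.0126), as it did after rescaling (0.12, 0.0358).

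The third comparison sets the fusion line with Dex against the same line without it. It asks what accompanied Dex, which by the series' account moves the fusion protein to the nucleus. No WT or KO library received Dex, so Dex itself and the move of the fusion protein cannot be told apart. At days 2 and 4 Ythdf1, Ythdf2, Ythdc1 and Fto were lower with Dex, and at every day Igf2bp2 was higher. By limma, 7 members passed at day 0 (6 higher, 1 lower), 9 at day 2 (2 higher, 7 lower), 8 at day 4 (3 higher, 5 lower) and 7 at day 6 (1 higher, 6 lower), against 43.4%, 44.3%, 40.2% and 42.7% of all genes. The higher calls made up 27.3%, 12.7%, 18.3% and 23.8% of all genes and the lower calls 16.1%, 31.5%, 21.9% and 19.0%. The median change of the YTH genes was 0.04, -0.44, -0.29 and -0.15, against 0.04, -0.08, -0.01 and 0.01 for all tested genes. Fitted on the compared libraries alone, day 0 gave 4 called members, Ythdc1, Ythdc2, Igf2bp2 and Igf2bp3. Rescaling moved the share of higher calls among all genes from 62.9% to 48.2% at day 0 and from 28.7% to 50.1% at day 2. It turned no called member, and turned the uncalled day 0 values of Ythdf1, Ythdf2 and Fto below 0.

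Ythdf2 had its largest response to Dex at day 2. It was 32.8 FPKM in each library without Dex and 20.3 and 18.8 with Dex, beside 20.3 in each WT library. At day 6 it was 34.8 and 34.0 FPKM without Dex and 27.1 and 26.6 with Dex. The groups did not overlap at either day. The differences were 0.04, -0.72, -0.32 and -0.34 at days 0, 2, 4 and 6 (SE 0.039), with adjusted p of 0.415, 8.73e-11, 2.45e-06 and 8.17e-07.

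Ythdf1 behaved in the same order, from 54.2 and 54.6 FPKM without Dex to 39.6 and 40.1 with Dex at day 2, and from 44.6 and 44.7 to 40.1 and 40.5 at day 6. Its differences were 0.03, -0.44, -0.29 and -0.14 (SE 0.024), with adjusted p of 0.367, 8.05e-11, 1.3e-08 and 6.27e-05. Ythdc1 was lower with Dex at day 0 as well, at 88.9 and 91.3 FPKM without and 77.0 and 74.9 with Dex. At day 4 it was 112 and 114 FPKM without Dex and 76.5 and 78.1 with Dex. By day 6 the groups were near each other, at 101 and 92.9 FPKM without Dex and 92.2 and 92.5 with it. The differences were -0.24, -0.53, -0.54 and -0.07 (SE 0.038), with adjusted p of 3.09e-05, 2.13e-09, 1.47e-09 and 0.175. Without replicate 2 of the day 6 libraries that had no Dex, the day 6 value passed (-0.12, adjusted p = 0.0241).

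Ythdf3 had differences of 0.19, -0.26, -0.04 and -0.22 (SE 0.038), with adjusted p of 0.000392, 2.25e-05, 0.476 and 0.000137. The day 0 value had an adjusted p of 0.0592 on the compared libraries alone. Ythdc2 passed only at day 0, where it was 1.68 and 1.53 FPKM without Dex and 2.55 in each library with Dex (difference 0.45, SE 0.119, adjusted p = 0.00474). Its later values, -0.24, -0.26 and -0.15 (SE 0.119), were not called, although the groups did not overlap at days 2 and 4. Leaving out day 4 replicate 1 without Dex moved the day 4 value to -0.39. Leaving out day 6 replicate 1 without Dex moved the day 6 value to -0.35.

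Igf2bp2 rose with Dex, from 57.4 and 56.1 FPKM to 87.5 and 87.7 at day 4, the largest of its Dex responses, and from 65.5 and 65.4 to 79.9 and 81.5 at day 6. The differences were 0.35, 0.14, 0.62 and 0.30 (SE 0.044), with adjusted p of 2.23e-06, 0.0118, 1.81e-09 and 1.7e-05. The day 2 call was lost without replicate 2 of the libraries without Dex (adjusted p = 0.0513) or replicate 1 of those with Dex (0.0843). Igf2bp3 changed direction with the day. It was 29.2 and 28.1 FPKM without and 41.0 and 42.7 with Dex at day 4, but 64.9 and 60.0 without and 39.5 and 38.3 with Dex at day 6. The differences were 0.46, 0.16, 0.53 and -0.67 (SE 0.042), with adjusted p of 5e-08, 0.0047, 8.99e-09 and 2.59e-10. The day 2 call was lost without replicate 2 with Dex (0.12, adjusted p = 0.0796). Igf2bp1 had differences of 0.25, -0.22, 0.15 and -0.07 (SE 0.045, adjusted p of 0.000129, 0.00057, 0.0112 and 0.227). Its day 4 call was lost without replicate 1 of the libraries without Dex (adjusted p = 0.0833) or replicate 2 of those with Dex (0.0936), and its day 2 call under rescaling (-0.10, 0.0681).

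The erasers fell with Dex at day 2. Fto was 26.7 and 26.4 FPKM without Dex and 19.0 and 19.6 with it, and Alkbh5 20.02 and 19.84 against 15.7 and 16.5. The Fto differences were 0.07, -0.44, -0.22 and -0.12 (SE 0.039, adjusted p of 0.183, 3.98e-08, 0.000199 and 0.0165), so the gap narrowed with time. The day 6 Fto call was lost without replicate 2 of the libraries without Dex (-0.10, adjusted p = 0.119), or without replicate 1 (0.0685) or replicate 2 (0.0599) of those with Dex. The Alkbh5 differences were 0.21, -0.29, -0.12 and -0.15 (SE 0.037, adjusted p of 0.000114, 3.16e-06, 0.014 and 0.00316). The day 4 call was lost without replicate 1 of the libraries without Dex (0.0767) or replicate 1 of those with Dex (0.0713).

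**Figure D3:**
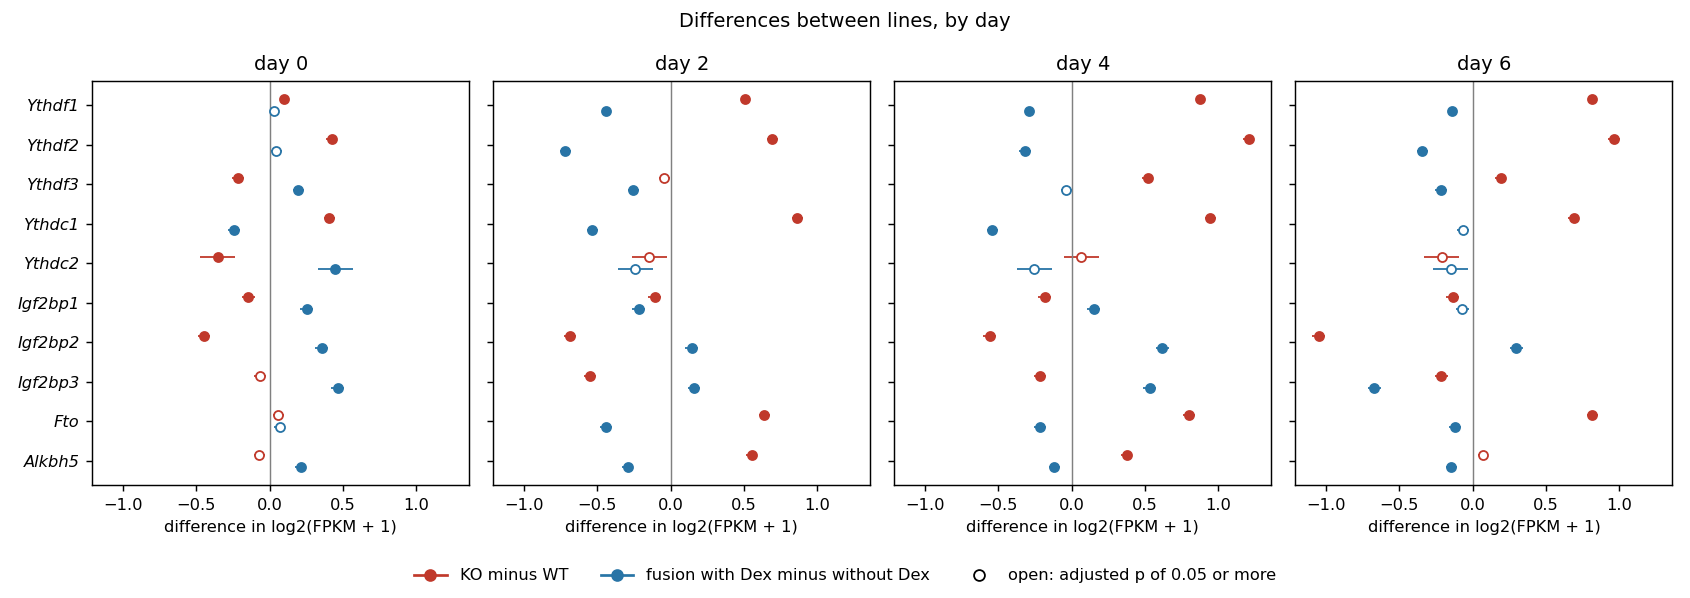
Difference in log2(FPKM + 1) with its SE (horizontal axis) for each gene (vertical axis) at days 0, 2, 4 and 6, for KO minus WT (red) and for the fusion line with Dex minus without Dex (blue). Filled points passed an adjusted p of 0.05 in limma. At days 2 and 4 Ythdf1, Ythdf2, Ythdc1, Fto and Alkbh5 lie right of 0 in red and left of 0 in blue, and Igf2bp2 lies the other way at all 4 days.

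KO against WT and Dex against no Dex use separate libraries, so the calls can be set beside each other. Higher in KO and lower with Dex were Ythdc1 at day 0, the 5 genes Ythdf1, Ythdf2, Ythdc1, Fto and Alkbh5 at each of days 2 and 4, and Ythdf1, Ythdf2, Ythdf3 and Fto at day 6. Over all tested genes that pattern was met by 10.2%, 19.9%, 15.8% and 7.78% at days 0, 2, 4 and 6. Ythdf1, Ythdf2 and Fto met it at each of days 2, 4 and 6, against 2.19% of all genes. Of the calls behind this, those of Fto at day 6 and Alkbh5 at day 4 with Dex are the ones lost when single libraries are left out, as given above. Lower in KO and higher with Dex were Igf2bp1, Igf2bp2, Ythdc2 and Ythdf3 at day 0 (18.3% of all genes), Igf2bp2 and Igf2bp3 at day 2 (7.34%), the 3 Igf2bp genes at day 4 (10.8%) and Igf2bp2 at day 6 (9.91%). Several calls behind this second pattern are also lost when single libraries are left out, as given above. These are the KO calls of Igf2bp1 and Ythdc2 at day 0, and the Dex calls of Igf2bp2 and Igf2bp3 at day 2 and of Igf2bp1 at day 4. Only Igf2bp1 at day 2 and Igf2bp3 at day 6 passed in the same direction in both comparisons, downwards. The day 2 KO call of Igf2bp1 is lost with single libraries left out, and its day 2 Dex call under rescaling.

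The fourth comparison, fusion line with Dex against WT, asks how near the levels came to those of unmodified cells. Members called numbered 10, 5, 8 and 10 at days 0, 2, 4 and 6, against 49.8%, 29.4%, 44.7% and 61.4% of all genes. The day 2 count was 3 without WT day 2 replicate 1, without replicate 1 of the Dex libraries, under rescaling, or with the compared libraries alone. The calls lost with these libraries were those of Ythdf1 (-0.09) and Ythdf3 (-0.12). At day 2 Ythdf2 and Ythdc1 differed from WT by -0.05 (SE 0.039, adjusted p = 0.341) and 0.005 (SE 0.038, adjusted p = 0.958). Fto exceeded WT by 0.26, 0.55 and 0.51 at days 2, 4 and 6 (SE 0.039, adjusted p of 5.81e-05, 1.28e-09 and 1.04e-09), in a comparison where the chromosome 8 median was above the rest by 0.12, 0.30 and 0.39. At day 6 Ythdc1 was above WT by 0.41 (adjusted p = 1.27e-08), and Igf2bp2, Igf2bp3 and Igf2bp1 were below it by -0.60, -0.81 and -0.38 (adjusted p of 4.73e-10, 3.81e-12 and 5.3e-07). The weaker day 6 calls were those of Ythdf2 (0.13), Ythdc2 (-0.44) and Alkbh5 (-0.12), the last also lost after rescaling (-0.08, adjusted p = 0.0629). They were lost without WT day 6 replicate 1 (adjusted p of 0.179, 0.054 and 0.056) or without replicate 1 of the Dex libraries (0.0521, 0.0568 and 0.053). At day 0 Ythdc1 passed narrowly (0.09, adjusted p = 0.0497) and did not with any of the 4 libraries left out (adjusted p from 0.0623 to 0.236) or with the replicate number as a block (0.0568). The day 0 call of Ythdc2 (-0.42) was lost without WT day 0 replicate 1 (0.0547).

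The change from day 0 to day 6 within a line was dominated by Igf2bp2 and Igf2bp3. Members called numbered 8 in WT, 10 in KO, 9 in the fusion line without Dex and 9 with Dex, close to the 78.1%, 80.4%, 81.9% and 80.4% of all genes. Igf2bp2 rose by 2.09, 1.49, 2.21 and 2.15 on the log2 scale in those lines (SE 0.044, adjusted p from 1.25e-19 to 5.93e-17) and Igf2bp3 by 1.53, 1.38, 2.13 and 0.99 (SE 0.042, adjusted p from 1.34e-19 to 2.54e-14). Igf2bp1 fell by 0.49, 0.49, 0.23 and 0.55 (SE 0.045), so the family did not move as one. Alkbh5 rose by 0.65, 0.80, 1.29 and 0.93 (SE 0.037), and Fto by 0.25 in WT against 1.01, 1.20 and 1.01 in the other lines (SE 0.039). Rescaling moved the median change of all genes from 0.09 to -0.03 in WT, from 0.09 to -0.01 in KO, from 0.17 to -0.03 in the fusion line without Dex and from 0.14 to -0.01 with Dex. Ythdc1 in the fusion line without Dex was turned by it from 0.10 to -0.18, and Ythdf1 there from 0.01 (not called) to -0.26 (called). Ythdf3 in WT was turned from 0.15 (called) to -0.009 (adjusted p = 0.845). Rescaling also ended the calls of Ythdf2 in WT (0.17 to 0.002, adjusted p = 0.97), Ythdc1 in KO (0.24 to 0.08, 0.0559) and with Dex (0.28 to 0.07, 0.09), and Ythdc2 in KO (0.35 to 0.22, 0.0899), and Ythdc1 in WT passed as lower (-0.21, 3.63e-05). The counts of called members were then 7, 8, 10 and 8. The Ythdc2 call in KO (0.35) was lost without KO day 6 replicate 1 (adjusted p = 0.0506). The Ythdc1 call in the fusion line without Dex was also lost without day 0 replicate 1 (0.08, adjusted p = 0.115) or day 6 replicate 1 (0.04, 0.336).

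**Figure D4:**
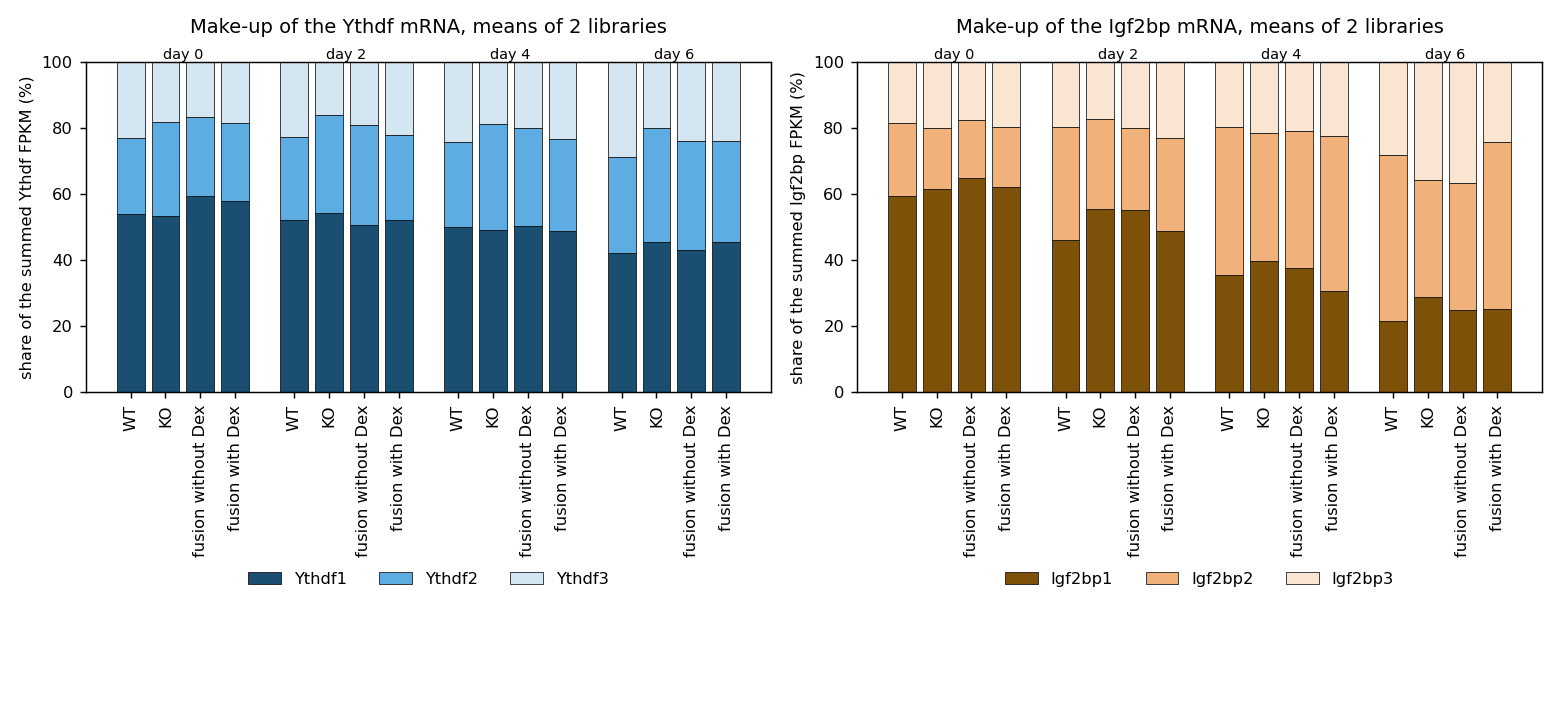
Share in percent of the summed FPKM of the 3 Ythdf genes (left) and of the 3 Igf2bp genes (right), by line and day, as means of 2 libraries. Igf2bp1 makes up the largest part of its family at day 0 in every line and between 21.6% and 28.9% at day 6, and Ythdf2 has a larger share of its family in KO than in WT at each day.

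These changes altered the make-up of each family. The summed Igf2bp level rose from 126 ± 1.51 FPKM (SD, n = 2) at day 0 to 245 ± 2.12 at day 6 in WT, and from 110 ± 3.45 to 166 ± 1.02 in KO. In WT the share of Igf2bp1 in that sum went from 59.4% to 21.6% and that of Igf2bp2 from 22.3% to 50.3%. At day 6 Igf2bp2 held 50.4% of the sum with Dex and 38.4% without, while Igf2bp3 held 24.3% and 36.6%. The summed Ythdf level was 94.7 ± 1.46 FPKM in WT and 103 ± 1.76 in KO at day 0, and 84.6 ± 2.87 against 140 ± 0.47 at day 6. Ythdf2 made up 28.9% of it in WT and 34.7% in KO at day 6. The ratio of Fto to Alkbh5 at day 6 was 1.23 ± 0.06 in WT and 2.08 ± 0.02 in KO.

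The change over time itself was compared between lines with an interaction term. In KO against WT 8 members passed, against 56.9% of all genes. Fto (0.76, SE 0.055) and Ythdf1 (0.72, SE 0.034) gained the most in KO, and Igf2bp2 gained less in KO than in WT (-0.60, SE 0.062). The median of the chromosome 8 genes for this difference was 0.33, against 0.004 for the other tested genes. Fto stood 0.42 above that chromosome 8 median, at the 75.6th percentile, and the part of the chromosome-wide difference in its value was not tested. In Dex against no Dex 9 passed, against 48.7%, and the largest was Igf2bp3 (-1.13, SE 0.06, adjusted p = 2.56e-11). Alkbh5 (0.14) and Igf2bp3 (-0.15) in KO against WT were the weakest of these. The Alkbh5 call was lost without WT day 0 replicate 1, WT day 6 replicate 2, KO day 0 replicate 2 or KO day 6 replicate 1 (adjusted p from 0.0686 to 0.117). The Igf2bp3 call was lost without WT day 0 replicate 2, either WT day 6 library, KO day 0 replicate 2 or KO day 6 replicate 2 (0.0673 to 0.213). In Dex against no Dex the calls of Ythdc1 (0.18) and Ythdc2 (-0.60) were lost without replicate 2 of the day 6 libraries that had no Dex (0.12, adjusted p = 0.0751, and -0.39, 0.0536).

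Members were also set beside the rest of the m6A machinery. Of 9 genes of the writer complex, 5, 6, 7 and 5 were higher in KO than in WT at days 0, 2, 4 and 6, and 0, 1, 0 and 1 were lower (after rescaling 5, 4, 6 and 5 higher and 0, 2, 0 and 0 lower). The 9 include Mettl3, the gene labelled as knocked out. It is counted among those higher at day 0, with and without rescaling, and among those lower at day 2 after rescaling. Over all tested genes, before rescaling, 18.4%, 37.5%, 36.5% and 30.9% were called higher in KO and 29.8%, 21.3%, 24.0% and 34.2% lower. With Dex, 0, 6, 5 and 6 of the 9 were lower and 2, 0, 0 and 1 higher (after rescaling 2, 6, 5 and 6 lower and 2, 1, 0 and 1 higher). The shares of all tested genes with Dex, before rescaling, were 16.1%, 31.5%, 21.9% and 19.0% lower and 27.3%, 12.7%, 18.3% and 23.8% higher. Wtap, which anchors the complex in the nucleus, was 51.3 and 51.5 FPKM in WT, 114 and 113 in KO, 99.3 and 99.2 in the fusion line without Dex and 68.1 and 68.6 with Dex at day 4. Its groups did not overlap, and KO and the line without Dex lay above the other two. Of 8 other proposed readers (Hnrnpa2b1, Hnrnpc, Rbmx, Elavl1, Fmr1, Fxr1, Fxr2 and Prrc2a), 1 was higher and 4, 6, 4 and 5 were lower in KO at days 0, 2, 4 and 6, beside the shares of all genes given for KO above. The 11 CCR4-NOT genes, partners of Ythdf2, had median differences of -0.09, -0.02, 0.04 and -0.14 in KO against WT, against -0.04, 0.09, 0.06 and -0.03 for all genes. The 7 other AlkB-type dioxygenases, relatives of Alkbh5, had medians of 0.07, 0.08, 0.25 and 0.07.

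The let-7 microRNAs are known to repress Igf2bp, Lin28 and Hmga2 mRNAs. Of 8 genes of that pathway, from day 0 to day 6, 7 rose in WT, KO and the fusion line without Dex and 6 with Dex, against 43.6%, 45.0%, 48.0% and 46.4% of all tested genes, and Trim71 fell in all 4. After rescaling, Lin28a turned to a called fall in the fusion line without Dex, where 6 then rose. Hmga2, a chromatin protein and a let-7 target, was 113 and 115 FPKM in WT, 22.0 and 21.5 in KO, 43.6 and 43.1 in the fusion line without Dex and 122 and 123 with Dex at day 6. The day 6 levels of Igf2bp2 stood in another order, with WT highest and the libraries with Dex next.

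Across the 16 group means, the genes whose pattern was most like each member's were taken from 9072 candidates by Pearson's r. These are descriptions over group means that share their libraries. For Ythdf2 they were Ccdc127 (0.958), Cbll1 (0.954) and Pard3 (0.946). Cbll1 encodes a subunit of the writer complex, and was 9.74 and 10.1 FPKM in WT and 13.9 and 14.8 in KO at day 4. For Fto they were Glg1 (0.977), Sh3rf1 (0.972) and Gpat4 (0.971), all 3 on chromosome 8. For Igf2bp2 they were Kif5c (0.969), Mapk11 (0.969) and E2f5 (0.967), and for Igf2bp3 Pafah1b2 (0.975), Tcf7l2 (0.971) and Top2b (0.966). For Ythdf1 they were Naa30 (0.959), Fbxo28 (0.948) and Smg8 (0.933). Among the members, Igf2bp2 and Igf2bp3 were the most alike (0.87), followed by Fto and Ythdf2 (0.86), while Igf2bp1 and Fto ran opposite (-0.48).

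The sequence GGACT, the form of the m6A consensus most often methylated, was counted on the sense strand of each member's longest coding transcript in GENCODE M21. Alkbh5 had 10 copies, 1.75 per kilobase, more than 82.0% of the 13588 genes counted, whose median was 1.05. Igf2bp2 had 1.28 per kilobase, Ythdf2 1.21 and Igf2bp1 1.19. Ythdc1 had 0.61, Igf2bp3 0.46, Fto and Ythdc2 0.42, Ythdf1 0.31 and Ythdf3 0.2, all below the median. Copies per kilobase lay on both sides of the median among members of either direction in KO. Among those higher in KO at days 2 and 4, Alkbh5 and Ythdf2 lay above the median and Ythdf1, Ythdc1 and Fto below it, and among those lower at these days, Igf2bp1 and Igf2bp2 lay above it and Igf2bp3 below. Methylation itself was not measured in these libraries.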

How the data were processed

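The data are polyA-selected, paired-end mRNA libraries of mouse cells, deposited by the authors as 1 table of FPKM per gene, and per the submitters' processing notes STAR, Cuffdiff and the mm10 build were used, with roles and versions not given in the sources used here. FPKM are already divided by depth and transcript length. Because of the added 1, fold changes of low genes are understated on the log2(FPKM + 1) scale. Depth was estimated from the step size of low FPKM values: 85.1% to 92.8% of them fell within 0.2 of a whole fragment (40% expected from evenly spread values), with lengths shortened by 280 to 320 bases.

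Genes with at least 1 FPKM in at least 2 of 32 libraries (16276) were fitted with limma 3.58.1 in R 4.3.3 on log2(FPKM + 1), with 16 group means, no replicate block and a mean-variance trend, checked on simulated data. P-values are two-sided and Benjamini-Hochberg adjusted over all tested genes, and a call is an adjusted p under 0.05. A change is the first group minus the second. Replicate numbers did not pair the libraries: duplicate differences correlated by -0.09 to 0.13 over 120 pairs of groups.

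Alternatives were a pseudocount of 0.1, no filter, a mean of at least 5 FPKM, median-of-ratios rescaling (factors 0.877 to 1.11), the compared groups alone, a replicate block, each library left out, and, for Fto, centring on chromosome 8 genes. The members and gene lists were chosen with earlier results of these data known. Of the table's gene identifiers, 99.5% were found in GENCODE M21. The text names all 10 members, and genes of the lists where a result turns on them. Pattern likeness used Pearson's r over the 16 group means. Promoters came from RefSeq (GRCm38.p6).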

Additional observations from a re-analysis of the deposited data

Results flagged for a closer look

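Most members moved differently between days 0 and 6 in the lines compared, by limma's test of the interaction on log2(FPKM + 1) with Benjamini-Hochberg adjustment. Compared with WT, the KO line gained more Ythdf1 (0.72), Ythdf2 (0.54), Ythdf3 (0.41), Ythdc1 (0.28), Fto (0.76) and Alkbh5 (0.14), and less Igf2bp2 (-0.60) and Igf2bp3 (-0.15). The median of the chromosome 8 genes, where Fto lies, was 0.33 for this difference. In the fusion line, the change from day 0 to day 6 was lower with Dex than without it for most members. These were Ythdf1 (-0.17), Ythdf2 (-0.39), Ythdf3 (-0.41), Ythdc2 (-0.60), Fto (-0.19), Alkbh5 (-0.36), Igf2bp1 (-0.32) and Igf2bp3 (-1.13). For Ythdc1 the change was higher with Dex (0.18). Before rescaling, Igf2bp1 fell with and without Dex, and Ythdf1 fell with Dex and was nearly flat without it. At day 0 Igf2bp1 and Ythdc2 were already higher with Dex (0.25 and 0.45), in libraries whose Dex treatment the protocol does not list. Rescaling ended the call of Fto with Dex (-0.12, adjusted p = 0.0715) and of Igf2bp3 in KO against WT (-0.14, adjusted p = 0.0592).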

How the results depend on the processing

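Each of the 22 counts of members called stayed within 1.5 times its value with a pseudocount of 0.1, no filter, a mean of at least 5 FPKM or a replicate block. With the compared groups alone, 3 members were called in KO against WT at day 0 (7 in the full fit), 4 (of 7 before) in the day 0 fusion libraries with and without Dex, and 3 in the fusion line with Dex against WT at day 2 (5). The last count was 3 under median-of-ratios rescaling and 3 to 4 with a library left out. Of the 220 single values, 22 lost and 1 gained a call with the compared groups alone, where only 4 to 8 libraries gave the spread. The replicate block, which the libraries do not share beyond a number, ended 1 call (Ythdc1, fusion line with Dex against WT, day 0: 0.092) and no other.

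Rescaling turned 11 values, of which 2 were called before: Ythdc1 from day 0 to day 6 in the fusion line without Dex (-0.177) and Ythdf3 over the same days in WT (-0.009, no longer called). Ythdf1 in the fusion line without Dex became -0.264. The other 8 were Ythdc2 in KO against WT at day 4 (-0.014), Ythdc1 (0.061, day 0), Ythdf2 (0.006, day 2) and Fto (0.007, day 4) in the fusion line without Dex against KO, the day 0 values of Ythdf1 (-0.053), Ythdf2 (-0.036) and Fto (-0.011) with Dex against without it, and Igf2bp2 in its change over time with Dex minus without (0.008). Centring on chromosome 8 gave 0.009 for Fto in the fusion line without Dex against KO at day 4. The cause was not tested.

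With single libraries left out, the values that changed sign were all small and uncalled in the full fit. Ythdc2 ranged from -0.037 to 0.168 in KO against WT at day 4, from -0.053 to 0.219 (day 4) and -0.281 to 0.125 (day 6) in the fusion line without Dex against KO, and from -0.353 to 0.053 in Dex against no Dex at day 6, where its fragments are few. Igf2bp1 ranged from -0.014 to 0.054 in the fusion line without Dex against KO at day 4, from -0.039 to 0.01 in the fusion line with Dex against WT at day 4, and from -0.06 to 0.077 in the change over time of KO against WT. In the fusion line with Dex against WT at day 2, Ythdf2 ranged from -0.11 to 0.001, Ythdc1 from -0.011 to 0.02 and Igf2bp3 from -0.016 to 0.067. Ythdf3 ranged from -0.081 to 0.005 in Dex against no Dex at day 4.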
